A study of Rattus norvegicus with 18 samples.

Results

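The genes described here are the 30 ionotropic glutamate receptors, metabotropic glutamate receptors and glutamate transporters that a list of symbols named, found by exact symbol among the 34873 genes of a count table from rat brain. All 30 matched 1 row each, and all 30 had enough counts to be tested, with 16581 genes tested in all. They fall into 4 AMPA receptor subunits, 7 NMDA receptor subunits, 5 kainate receptor subunits, 1 delta receptor, 7 metabotropic receptors (mGlu; 1 of group I, 2 of group II and 4 of group III), 3 vesicular transporters and 3 transporters of the cell membrane. RNA-seq was run on 18 brain libraries in 3 groups of 6. The NC group was wild-type rats with no treatment named, and the CO group was wild-type rats exposed by inhalation to carbon monoxide (CO). The CLCF1 rats inhaled CO too, and their group carries a knock-down label for Clcf1, the gene of a secreted cytokine of the interleukin-6 family. The CO exposure was 1000 ppm for 40 min followed by 3000 ppm for 20 min, with carboxyhemoglobin above 60%.

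The study's design text places the lentiviral Clcf1 knock-down in bone marrow-derived macrophages, which were injected into rats after liposome treatment to remove their own macrophages. Whether NC and CO rats received liposomes or cells is not stated, so the knock-down label cannot be told apart from these treatments in a comparison of CLCF1 with either other group. The region of the brain, the time after exposure and the age and strain of the rats are not in the labels. Nor is it stated whether each library is from its own animal, so the p-values below measure the spread between libraries only, and this may be technical. Clcf1 itself had 1 to 7 counts per library in NC, 80 to 118 in CO and 0 to 3 in CLCF1.

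Glutamate is the main excitatory transmitter of the brain. Vesicular transporters load it into synaptic vesicles, AMPA, kainate and NMDA receptors are the cation channels it opens on the receiving cell, metabotropic receptors couple to G proteins and tune release and excitability, and membrane transporters on astrocytes and neurons take it up again. In brain starved of oxygen, uptake can fail and NMDA receptors admit calcium, a process known as excitotoxicity.

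Libraries held 15.1 to 20.3 M counts, with a mean of 17.5 ± 1.47 M (SD, n = 18). Libraries 3 to 6 of each group stood apart from libraries 1 and 2. There were 42660 instances of a gene with no count in either library 1 or library 2 of a group, and libraries 3 to 6 of that group held a count of it in 0 of them. Of the same genes, 6.17% to 11.9% had a count in library 1 or 2 of another group. In the reverse direction, genes without a count in 2 of libraries 3 to 6 had one in library 1 or 2 in 2.87% to 5.48% of cases. Whether libraries 3 to 6 are independent samples was not tested further. If they are not, each n of 6, SE, p-value and separation of libraries below rests on fewer samples than it states. The called members and partners named below are given with their values in libraries 1 and 2 alone. The tissue held brain RNA: the summed level of 14 pan-neuronal marker genes was 7467 to 8164 CPM (counts scaled to a common library size) in NC, 9571 to 10010 in CO and 7743 to 8937 in CLCF1. The sums of 12 astrocyte markers were 6611 to 9723, 5423 to 9335 and 6411 to 8147 CPM. The endothelial marker Cldn5 and the hypothalamic marker Pmch were at 0 in all libraries.

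Levels differed widely between members. CPM per kilobase of gene length, the scale used here to set one gene beside another, put Slc17a7 first in NC at 279 ± 34.3 (SD, n = 6). Slc17a7 encodes VGLUT1, the vesicular transporter of most cortical and hippocampal excitatory neurons. The astrocyte uptake transporter gene Slc1a3, which encodes GLAST, followed at 179 ± 37.5, and Slc1a2, the gene of the main forebrain uptake transporter GLT-1, at 90.1 ± 35.3. The length the table gives for Slc1a2 is only 882 bases, so its counts may cover part of the transcript and its level per kilobase is uncertain. Among receptors, the AMPA subunit gene Gria2 was at 63.7 ± 11.1 and the obligatory NMDA subunit gene Grin1 at 48.8 ± 5.64, and their ranges in NC overlapped. The kainate subunit gene Grik5 was at 32.7 ± 8.12. At the low end were Grin3b (1.11 ± 0.279) and Grm6 (0.190 ± 0.110), a receptor known mainly from retinal ON bipolar cells, which had 3 to 46 counts per library.

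**Figure D1:**
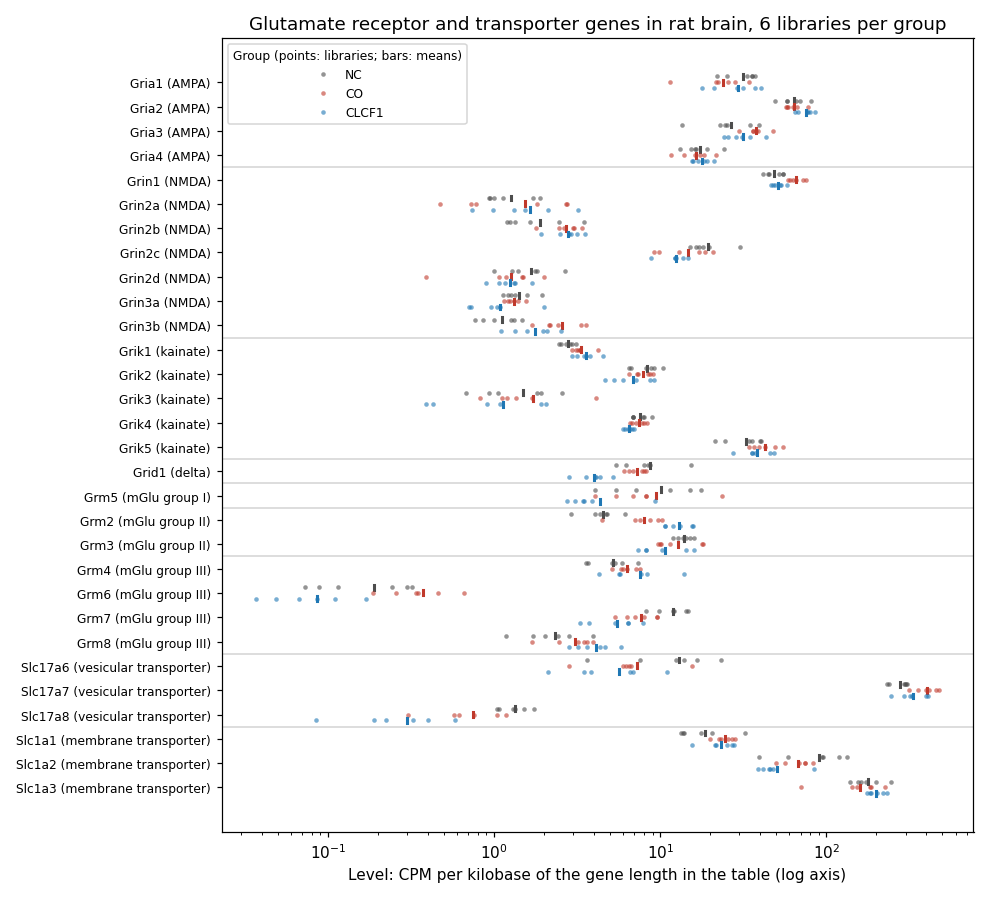
Level of each of the 30 genes in each of the 18 libraries, in CPM per kilobase of the gene length in the table (log axis), with bars at group means. Slc17a7 and Slc1a3 lie at the top in all 3 groups and Grm6 at the bottom, and for most genes the 3 groups overlap.

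Of the 30 genes, 9 passed in at least 1 of the 3 comparisons (edgeR's quasi-likelihood test, Benjamini-Hochberg adjusted over all 16581 genes, threshold 0.05) and 21 in none. Of these 9, Grin3b, Slc17a7, Grm6, Grm7 and Slc1a2 passed in 1 comparison. Grin1, Grid1 and Slc17a8 passed in 2, and Grm2 in all 3. The comparisons share libraries: CO against NC and CLCF1 against CO share the CO group, and CLCF1 against NC shares a group with each. In bulk tissue a lower level can stand for fewer cells of a type or for less RNA per cell, which cannot be told apart.

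The comparison of CO with NC asks what CO inhalation changed in wild-type brain. In CO, 4 genes rose and 0 fell: Grin1, Grin3b, Grm2 and Slc17a7. As a share, 13.3% of the members were called against 12.7% of all genes tested, and 4 members rose where 6.32% of all genes rose and 6.40% fell. The share is near the background, so the count is not a result about these genes as a set. Their median log2 fold change was -0.01, beside 0.01 over all genes, with 14 members above 0 and 16 below. For 3 of the 30, Grin1, Grin3b and Slc17a7, the 6 libraries of CO lay outside the range of the 6 of NC, as for 6.35% of all genes. An unadjusted p under 0.05 was reached by 10 of the 30 members and by 29.6% of all genes.

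Grin1, on chromosome 3 at positions 2506896 to 2534663 of the count table's unnamed genome build, encodes the GluN1 subunit present in every NMDA receptor. Its level was 216 to 285 CPM in NC with a median of 252, 305 to 391 in CO with a median of 333, and 240 to 302 in CLCF1 with a median of 264. Every CO library was above every NC and every CLCF1 library, while NC and CLCF1 overlapped. Grin1 thus rose in CO by 0.43 ± 0.09 on the log2 scale (SE; edgeR adjusted p = 0.00699) and was lower in CLCF1 than in CO (-0.36 ± 0.09, edgeR adjusted p = 0.0136), while CLCF1 and NC differed by 0.07 ± 0.09 (edgeR adjusted p = 0.697). Libraries 1 and 2 alone gave 0.45 and -0.46 for the first pair of comparisons, which did not pass there. An antisense gene, Lrrc26, overlaps it by 857 bases but held a mean of only 3.56 counts per library against 4980.

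Slc17a7 (chromosome 1, positions 101161372 to 101173195) showed the largest number of counts of the 9 called genes, 10322 to 22022 per library. Its level was 667 to 884 CPM in NC (median 853), 909 to 1379 in CO (median 1174) and 703 to 1186 in CLCF1 (median 927). The CO libraries were all above the NC libraries, and the CLCF1 libraries overlapped both. Slc17a7 rose in CO by 0.54 ± 0.13 (edgeR adjusted p = 0.0141), with 0.50 in libraries 1 and 2 alone. CLCF1 differed from CO by -0.28 ± 0.13 (edgeR adjusted p = 0.149) and from NC by 0.26 ± 0.13 (edgeR adjusted p = 0.241).

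Some neuronal and cortical marker genes were called in the same direction as Grin1 and Slc17a7, but most were not called. Of 14 pan-neuronal markers, 5 were called higher and 0 lower in CO against NC, with 9 not passing. In CLCF1 against CO, 1 was called higher and 4 lower, again with 9 not passing. The median log2 fold changes of this list were 0.26 and -0.15. Its summed level in CO, 9571 to 10010 CPM, lay above every NC library (7467 to 8164) and every CLCF1 library (7743 to 8937), as for Grin1. The marker called higher in CLCF1 against CO was Map2 (1.11), whose value in CO against NC was -0.47. Of the markers called higher in CO against NC, only Eno2 and Thy1 were called lower in CLCF1 against CO. Syn1 and Elavl4 were also called higher in CLCF1 against NC (0.55 and 0.86), unlike Grin1. In that comparison 0 were called lower and 12 did not pass. Of 12 cortical markers, 3 were called higher in CO against NC and 3 lower in CLCF1 against CO, with 9 not passing each time, and their sum was 850.7 to 1310 CPM in NC, 1261 to 1727 in CO and 1007 to 1384 in CLCF1. The median log2 fold change of the cortical markers in CO against NC was 0.47. In the other direction, 3 of 8 thalamic and subcortical markers tested were called lower in CO, and the sum of that list was 110.6 to 326.8 CPM in NC, 47.3 to 139.1 in CO and 102.8 to 204.2 in CLCF1. Of 8 hypothalamic markers tested, 3 were called higher in CO against NC (Oxt by 8.37, Avp by 6.90 and Pomc by 2.51) and 1 lower (Agrp, -2.09). Their sum was 13.95 to 23.39 CPM in NC, 24.17 to 326.8 in CO and 34.62 to 92.72 in CLCF1, so CO and CLCF1 both lay above NC. The part of these marker differences in the Grin1 and Slc17a7 values was not tested, and the tissue taken cannot be told apart from a change in expression.

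Since Grin1 and Slc17a7 rose together in CO, their promoter windows are shown, taken from RefSeq on assembly GRCr8 and running from 250 bases before to 50 bases after the annotated start. Each is written 5′ to 3′ on the gene's strand. Capitals mark matches, on either strand, to ACGTG, the GC box (GGGCGG) or the EGR site (GCGNGGGCG). ACGTG was the form searched of the core of the hypoxia response element, and no other form of that core was searched. In Grin1 the single GC box overlaps the EGR match. Grin1 lies at chr3:28528705-28529004 on the minus strand and Slc17a7 at chr1:104785955-104786254 on the plus strand.
Grin1: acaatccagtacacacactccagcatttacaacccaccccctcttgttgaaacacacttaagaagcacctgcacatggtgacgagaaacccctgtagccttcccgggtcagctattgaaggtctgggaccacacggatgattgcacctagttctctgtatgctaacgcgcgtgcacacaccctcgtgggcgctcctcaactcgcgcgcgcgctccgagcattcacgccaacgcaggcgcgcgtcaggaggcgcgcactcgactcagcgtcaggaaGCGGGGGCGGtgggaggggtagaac
Slc17a7: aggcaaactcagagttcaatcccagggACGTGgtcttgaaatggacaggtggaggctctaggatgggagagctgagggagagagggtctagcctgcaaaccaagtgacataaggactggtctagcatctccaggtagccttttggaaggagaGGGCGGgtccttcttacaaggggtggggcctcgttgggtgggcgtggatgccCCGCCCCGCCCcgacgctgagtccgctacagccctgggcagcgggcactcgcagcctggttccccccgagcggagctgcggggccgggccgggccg
G and C made up 59.7% of the Grin1 window and 64.7% of the Slc17a7 window, beside a median of 51.7% over all 33469 promoter windows. The EGR match of Grin1 occurs in 4.98% of all windows, the GC box, found in both, in 33.1%, and the ACGTG core, found in Slc17a7, in 19.3%. Windows were given for 19 of the 30 genes, of which 7 held ACGTG, 6 a GC box and 3 an EGR match. None of the 19 held a cAMP response element (TGACGTCA, in 1.83% of all windows) or an AP-1 site (TGANTCA, 7.33%). These are matches of letters and not shown to be bound sites.

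Grin3b (chromosome 7, positions 12764993 to 12771309) encodes GluN3B, an NMDA subunit that binds glycine. It was at 2.42 to 4.63 CPM in NC (median 3.60), 5.34 to 11.3 in CO (median 7.24) and 3.50 to 7.97 in CLCF1 (median 5.63). All CO libraries were above all NC libraries, and CLCF1 lay between with overlap on both sides. Grin3b rose in CO by 1.20 ± 0.24 (edgeR adjusted p = 0.00463), the largest rise among the 30 genes, with 0.88 in libraries 1 and 2 alone. The gene lies within the span of Palm on the opposite strand, and Palm had a mean of 4074 counts per library against 99.1 for Grin3b. Strandedness is not stated, so reads of Palm may enter the Grin3b count. Palm itself differed by 0.18 ± 0.21 in CO against NC (edgeR adjusted p = 0.613).

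Grm2 (chromosome 8, positions 115344999 to 115358046) encodes mGlu2, a presynaptic receptor that holds back glutamate release. Its level was 13.4 to 28.3 CPM in NC with a median of 20.8, 20.4 to 46.9 in CO with a median of 37.3, and 48.7 to 72.3 in CLCF1 with a median of 57.7. Every CLCF1 library was above every library of the other groups, and NC and CO overlapped only through CO library 5 at 20.4 CPM. Grm2 rose by 0.82 ± 0.19 in CO against NC (edgeR adjusted p = 0.00998) and was higher again in CLCF1 than in CO by 0.71 ± 0.19 (edgeR adjusted p = 0.0161). Against NC, the CLCF1 group was higher by 1.53 ± 0.19 (edgeR adjusted p = 0.000287), the smallest adjusted p of any member in any comparison. Libraries 1 and 2 alone gave 1.01, 0.33 and 1.34, with the CLCF1 libraries again highest, and none passed there. The other group II receptor gene, Grm3, which astrocytes also express, was at 49.5 ± 5.31 CPM in NC, 45.6 ± 14.2 in CO and 37.9 ± 12.5 in CLCF1 and passed in no comparison.

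**Figure D2:**
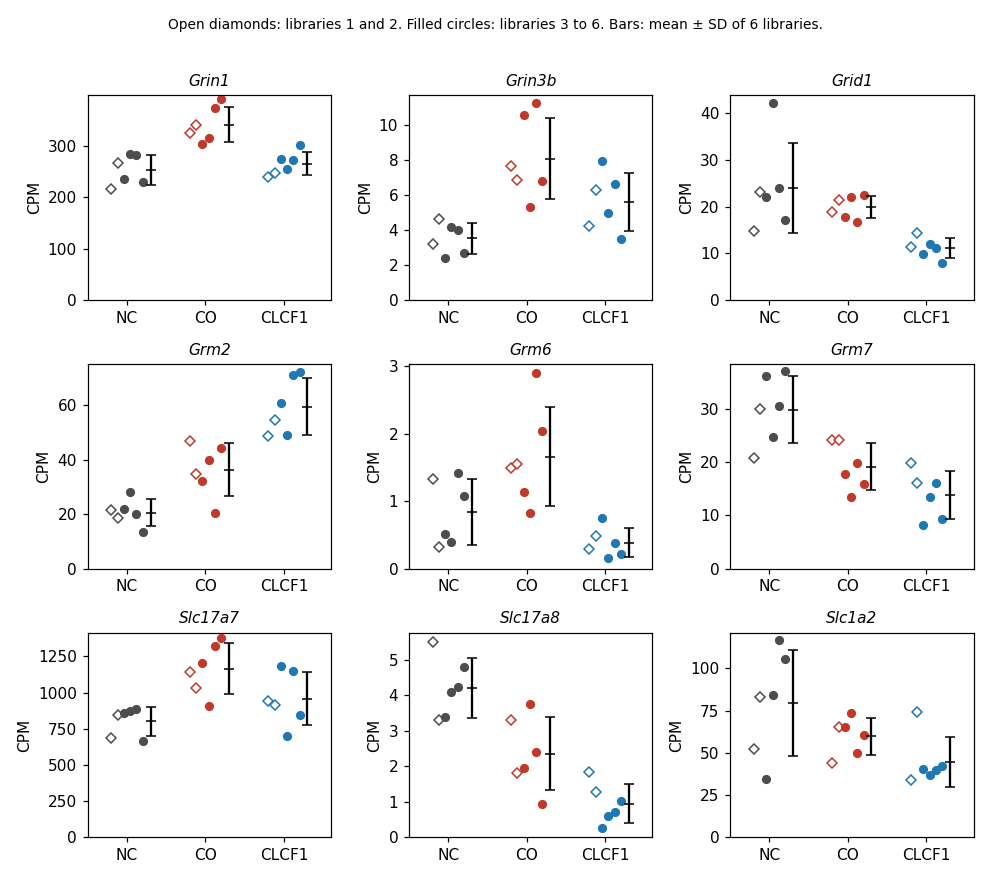
CPM in each library for the 9 genes called in at least 1 comparison, with open diamonds for libraries 1 and 2, filled circles for libraries 3 to 6, and bars for the mean ± SD of 6 libraries. Grin1 is highest in CO, Grm2 steps up from NC to CO to CLCF1, and Slc17a8 steps down in the same order.

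The comparison of CLCF1 with CO asks how the group with the knock-down label differed among CO-exposed rats. Grm2 was higher, and Grin1, Grid1, Grm6 and Slc17a8 were lower. That is 16.7% of the 30 genes, against 17.0% of all genes tested, with 8.63% of all genes higher and 8.34% lower. The share is again that of the background. The median log2 fold change of the members was -0.23, beside 0.00 over all genes, with 10 above 0 and 20 below. The libraries of the groups did not overlap for 4 members (Grin1, Grid1, Grm2 and Grm6), as for 7.12% of all genes. At an unadjusted p under 0.05 there were 10 of the 30 members and 32.2% of all genes.

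Grid1 (chromosome 16, positions 11599753 to 11932324) encodes GluD1, a delta receptor that links synapses through cerebellin rather than conducting a current when glutamate binds. It was at 14.8 to 42.2 CPM in NC (median 22.7), 16.8 to 22.5 in CO (median 20.1) and 7.80 to 14.4 in CLCF1 (median 11.2). The CLCF1 libraries were below all NC and all CO libraries, and NC and CO overlapped. Grid1 was lower in CLCF1 than in CO (-0.84 ± 0.21 on the log2 scale; edgeR adjusted p = 0.00985) and than in NC (-1.11 ± 0.21; edgeR adjusted p = 0.00313). In libraries 1 and 2 alone these values were -0.66 and -0.59, and CO against NC gave -0.27 ± 0.20 in all libraries (edgeR adjusted p = 0.408).

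Slc17a8 (chromosome 7, positions 30216104 to 30274984) encodes VGLUT3, the vesicular transporter of scattered cholinergic, serotonergic and GABAergic neurons. Its counts were low, 5 to 85 per library. The level was 3.29 to 5.50 CPM in NC (median 4.17), 0.953 to 3.75 in CO (median 2.17) and 0.269 to 1.85 in CLCF1 (median 0.863). NC and CLCF1 did not overlap, and CO overlapped both. Slc17a8 was lower in CLCF1 than in CO (-1.31 ± 0.37 on the log2 scale; edgeR adjusted p = 0.022), a call that ended when only the libraries of these groups were fitted, and lower than in NC (-2.14 ± 0.38; edgeR adjusted p = 0.0021). CO differed from NC by -0.83 ± 0.36 (edgeR adjusted p = 0.125). Libraries 1 and 2 alone gave -0.72, -1.52 and -0.80 for these 3 comparisons. Markers of monoamine neurons also differed: of 5 tested, 3 were called lower in CLCF1 against NC and 3 in CO against NC, while in CLCF1 against CO 2 were called higher (Th and Slc6a3) and 0 lower, the opposite direction to Slc17a8. The sum of the list was 26.9 to 245.9 CPM in NC, 16.4 to 63.7 in CO and 23.6 to 62.6 in CLCF1. The highest of these sums was that of NC library 1, which also had the highest Slc17a8 level at 5.50 CPM, and the part of this in the Slc17a8 values was not tested.

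Grm6 (chromosome 10, positions 36345939 to 36360665) was at 0.324 to 1.41 CPM in NC (median 0.787), 0.826 to 2.90 in CO (median 1.52) and 0.163 to 0.754 in CLCF1 (median 0.339). CO and CLCF1 did not overlap, and NC overlapped both. It was lower in CLCF1 than in CO (-2.09 ± 0.45 on the log2 scale; edgeR adjusted p = 0.00481), with -1.94 ± 1.02 in libraries 1 and 2 alone. With as few as 3 counts in a library, its fold change depends on few reads.

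The comparison of CLCF1 with NC measures how far the CO-exposed group with the knock-down label stood from the group with no treatment named. Grm2 was higher, and Grid1, Grm7, Slc17a8 and Slc1a2 were lower. These are 16.7% of the 30 genes, against 9.26% of all genes tested, 4.43% higher and 4.84% lower. The median log2 fold change of the members was -0.03, beside 0.01 over all genes, and 15 were above 0 and 15 below. The groups did not overlap for 5 members, Grid1, Grm2, Grm7, Slc17a8 and Grin2c, of which Grin2c was not called, as for 5.63% of all genes. With an unadjusted p under 0.05 there were 16 of the 30 members and 25.2% of all genes.

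Grm7 (chromosome 4, positions 142780987 to 143367578) encodes mGlu7, a presynaptic receptor of low glutamate affinity that sits in the active zone. Its level was 20.7 to 37.0 CPM in NC with a median of 30.2, 13.3 to 24.0 in CO with a median of 18.8, and 8.24 to 19.8 in CLCF1 with a median of 14.7. CLCF1 lay wholly below NC, and CO overlapped both. Grm7 was lower in CLCF1 than in NC (-1.11 ± 0.21 on the log2 scale; edgeR adjusted p = 0.00369), with -0.51 in libraries 1 and 2 alone. CO against NC gave -0.64 ± 0.21 (edgeR adjusted p = 0.0528), just outside the threshold, with -0.08 in libraries 1 and 2 and -0.94 in libraries 3 to 6. CLCF1 against CO gave -0.47 ± 0.21 (edgeR adjusted p = 0.131).

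The promoter windows of Grm7 and Slc17a8, both lower in CLCF1 than in NC, are given for comparison with those of Grin1 and Slc17a7, with the same motifs in capitals. They lie at chr4:145286476-145286775 on the plus strand and chr7:25935361-25935660 on the minus strand of GRCr8.
Grm7: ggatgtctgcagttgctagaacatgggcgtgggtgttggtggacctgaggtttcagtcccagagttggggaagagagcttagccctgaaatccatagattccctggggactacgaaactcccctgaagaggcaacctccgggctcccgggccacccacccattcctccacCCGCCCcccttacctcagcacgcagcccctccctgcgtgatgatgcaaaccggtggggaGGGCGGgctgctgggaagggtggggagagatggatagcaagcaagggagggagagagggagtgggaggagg
Slc17a8: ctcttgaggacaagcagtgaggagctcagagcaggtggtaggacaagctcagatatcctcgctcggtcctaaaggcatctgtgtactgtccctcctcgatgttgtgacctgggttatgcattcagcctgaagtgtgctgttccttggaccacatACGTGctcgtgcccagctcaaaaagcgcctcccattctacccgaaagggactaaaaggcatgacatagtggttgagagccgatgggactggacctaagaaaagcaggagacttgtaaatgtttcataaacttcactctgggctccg
The Grm7 window held 2 GC boxes, one on each strand, and 62.0% G and C. The Slc17a8 window held 1 ACGTG match, no GC box, and 51.3% G and C. ACGTG thus stood in the windows of both Slc17a7 and Slc17a8.

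Slc1a2 (chromosome 3, positions 92640752 to 92665644) was at 34.8 to 117 CPM in NC (median 83.6), 44.1 to 73.5 in CO (median 62.9) and 34.0 to 74.3 in CLCF1 (median 40.2). All 3 groups overlapped. It was lower in CLCF1 than in NC (-0.83 ± 0.25 on the log2 scale; edgeR adjusted p = 0.0417), and the difference was -0.35 ± 0.38 in libraries 1 and 2 alone. The call was lost without any 1 of NC libraries 2, 4, 5 or 6 or CLCF1 libraries 1, 3, 4, 5 or 6, with limma-voom (adjusted p = 0.052), and when only the libraries of these groups were fitted (edgeR adjusted p = 0.0656). CLCF1 library 2 held 74.3 CPM where the other 5 held 34.0 to 42.2. Slc1a3, the other astrocyte transporter, was at 712 ± 149, 637 ± 209 and 795 ± 88.7 CPM in NC, CO and CLCF1 and passed nowhere. Of 12 astrocyte markers, 2 were called lower in CLCF1 against NC, and their summed levels overlapped between the groups. The neuronal transporter Slc1a1, or EAAC1, was at 69.2 ± 27.1, 91.4 ± 11.7 and 86.5 ± 17.0 CPM and did not pass either.

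**Figure D3:**
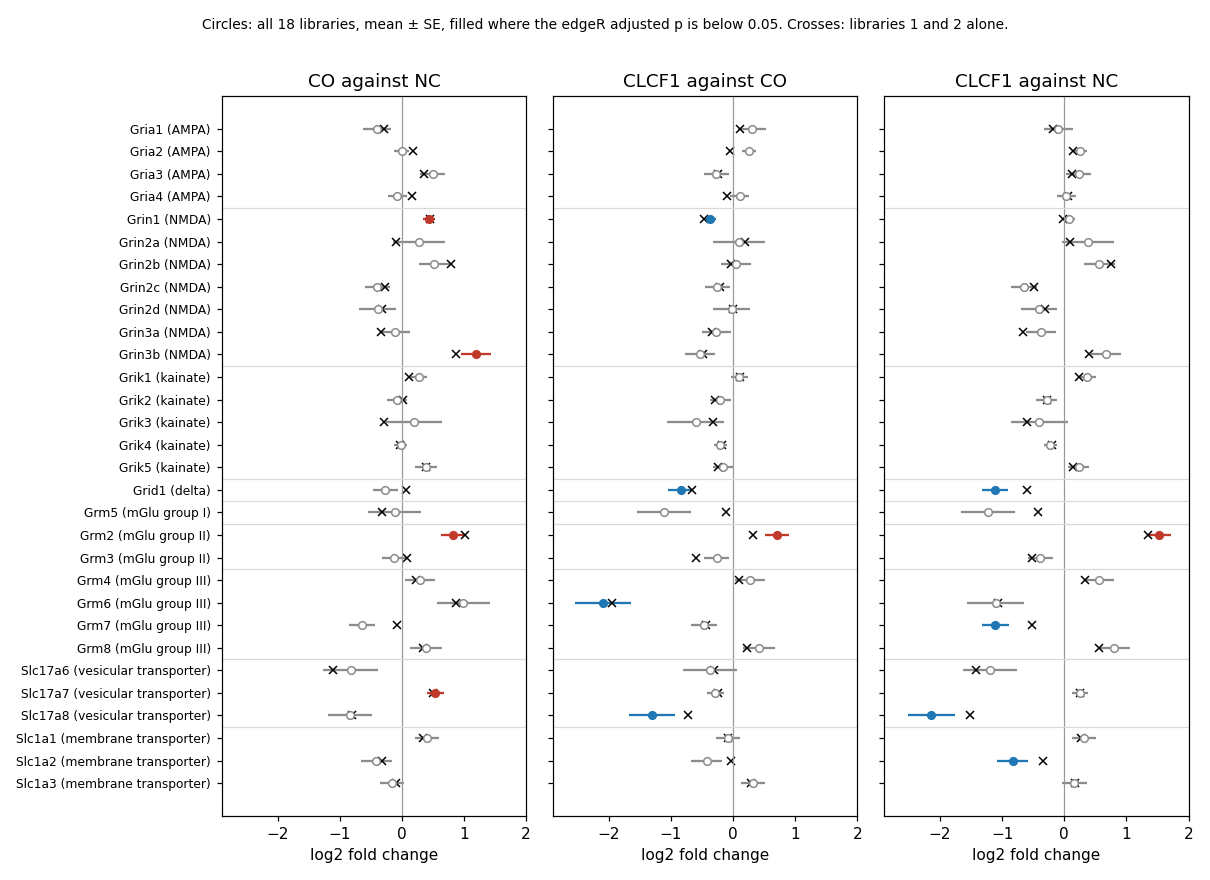
Log2 fold change with its SE for each gene in the 3 comparisons (circles, filled where the edgeR adjusted p is below 0.05), with crosses for libraries 1 and 2 alone. In CO against NC the filled points are Grin1, Grin3b, Grm2 and Slc17a7, all to the right of 0, and in both CLCF1 panels Grm2 is the only filled point to the right.

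With libraries 1 and 2 alone, 0 of the 30 genes passed in any comparison by edgeR, where of 16820 genes 0.0238% did in CO against NC, 0.0476% in CLCF1 against CO and 0.0119% in CLCF1 against NC. An unadjusted p under 0.05 was reached there by 2, 1 and 2 of the 30 members and by 3.53%, 4.86% and 2.49% of all genes. All 14 calls kept their sign in these 4 libraries per comparison. Libraries 1 and 2 also entered the calls, so this is not independent support. Libraries 3 to 6 alone gave 2, 3 and 5 called members. In CO against NC these were Grin3b, which was higher, and Grm7, which was lower and not called there with all libraries. Grin1, Grm2 and Slc17a7 did not pass in that comparison (edgeR adjusted p = 0.0792, 0.136 and 0.112). In CLCF1 against CO, Grin1 and Grm2 did not pass (edgeR adjusted p = 0.136 and 0.0548). The calls of CLCF1 against NC were all kept.

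No AMPA or kainate subunit gene passed in any comparison. The AMPA genes Gria1 to Gria4 encode GluA1 to GluA4, of which GluA2 keeps the channel closed to calcium. Gria3 came nearest, with 70.0 to 202 CPM in NC (median 127), 152 to 246 in CO (median 191) and 124 to 223 in CLCF1 (median 154). The groups overlapped, and CO against NC gave 0.50 ± 0.20 (edgeR adjusted p = 0.105). Gria2 was at 437 ± 76.0 CPM in NC, 436 ± 52.3 in CO and 519 ± 54.2 in CLCF1, Gria1 at 93.9 ± 18.9, 71.3 ± 22.8 and 87.8 ± 26.2, and Gria4 at 95.1 ± 21.2, 90.3 ± 19.2 and 97.1 ± 11.5. The 4 log2 fold changes of CO against NC ran from -0.40 to 0.50, and those of CLCF1 against NC from -0.10 to 0.25.

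Among kainate subunits, Grik1 had the smallest p. Its level was 7.64 to 9.67 CPM in NC (median 8.58), 9.07 to 13.0 in CO (median 9.98) and 9.04 to 14.0 in CLCF1 (median 10.9). NC lay low with a small overlap, and CLCF1 against NC gave 0.37 ± 0.13 (edgeR adjusted p = 0.0873). Grik5, an accessory subunit that forms channels only with Grik1 to Grik3 products, was at 123 ± 30.5, 161 ± 29.5 and 144 ± 29.1 CPM in the 3 groups. Grik4, its closest relative, had the smallest coefficient of variation of the 30 genes in CLCF1 (5.84%), with 24.9 ± 2.90 CPM in NC, 24.6 ± 2.34 in CO and 21.3 ± 1.25 in CLCF1. Grik2 was at 41.0 ± 7.60, 38.8 ± 4.80 and 33.7 ± 9.15 CPM. Grik3 varied widely, from 1.41 to 14.9 CPM over the 18 libraries.

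Of the 7 NMDA subunits, 5 passed in no comparison. Grin2a and Grin2b encode the glutamate-binding subunits of forebrain receptors, Grin2c one found mainly in cerebellar granule cells, thalamus and astrocytes, and Grin2d one of early life and interneurons. Grin2c was at 70.1 to 140 CPM in NC (median 82.0), 42.6 to 96.6 in CO (median 70.2) and 41.4 to 68.4 in CLCF1 (median 57.9). CLCF1 lay wholly below NC, at -0.65 ± 0.21 (edgeR adjusted p = 0.0536), with -0.49 in libraries 1 and 2 alone. Grin2b was at 9.95 ± 4.75, 14.3 ± 2.94 and 14.7 ± 2.91 CPM, and Grin2a at 5.42 ± 1.81, 6.57 ± 4.38 and 7.04 ± 3.84. Over the 18 libraries Grin2d ran from 2.03 to 14.1 CPM and Grin3a, whose product binds glycine, from 2.26 to 6.46 CPM.

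Of the metabotropic genes not yet described, Grm5, the group I receptor coupled to phospholipase C, varied most. It was at 12.7 to 54.8 CPM in NC (median 29.0), 12.6 to 73.6 in CO (median 23.5) and 8.56 to 29.2 in CLCF1 (median 10.8). The high CLCF1 value was library 2 alone, and the groups overlapped. CLCF1 against CO gave -1.11 ± 0.44 (edgeR adjusted p = 0.0845) and CLCF1 against NC -1.23 ± 0.44 (edgeR adjusted p = 0.0821), against -0.11 and -0.43 in libraries 1 and 2 alone. Without CLCF1 library 2 both passed, at -1.50 (edgeR adjusted p = 0.0257) and -1.61 (edgeR adjusted p = 0.0262). The striatum is rich in this receptor, and the sum of 12 striatal markers was 425.4 to 2214 CPM in NC, 1874 to 3130 in CO and 547.1 to 1960 in CLCF1. CLCF1 library 2, the one high in Grm5, had the lowest striatal sum of its group. Of the 12 striatal markers, 1 was called lower in CLCF1 against CO and 0 in CLCF1 against NC. Their median log2 fold changes in these comparisons were -0.85 and -0.29, and their part in the Grm5 values was not tested. The presynaptic receptor gene Grm8 was at 9.39 ± 3.83, 12.3 ± 3.36 and 16.4 ± 4.38 CPM, and CLCF1 against NC gave 0.80 ± 0.26 (edgeR adjusted p = 0.0588). Grm4, a further group III gene, was at 13.5 ± 3.76, 16.5 ± 2.38 and 19.9 ± 8.92 CPM. It lies inside the span of Ppil1 on the same strand, so reads of the pair may be mixed.

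Slc17a6 encodes VGLUT2, the vesicular transporter of thalamic and brainstem neurons. It was at 14.9 to 96.2 CPM in NC (median 54.5), 11.7 to 64.6 in CO (median 26.2) and 8.77 to 45.5 in CLCF1 (median 21.4). The lowest and the highest NC values were those of libraries 2 and 1, and the sum of thalamic and subcortical markers in those libraries was 110.6 and 326.8 CPM, also the lowest and highest of NC. CO against NC gave -0.83 ± 0.44 (edgeR adjusted p = 0.216) and CLCF1 against NC -1.20 ± 0.44 (edgeR adjusted p = 0.0914).

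Ratios between related subunits were computed in each library on the scale of CPM per kilobase and are described without a test. Gria2 made up 45.9% ± 4.67 of the 4 AMPA genes in NC, 44.9% ± 3.01 in CO and 49.2% ± 4.69 in CLCF1 (SD, n = 6). The ranges were 41.3% to 54.5%, 39.5% to 48.7% and 43.0% to 56.0%, and overlapped. The ratio of Grin2a to Grin2b, which rises as forebrain matures, was 0.770 ± 0.348, 0.577 ± 0.372 and 0.593 ± 0.272. Slc17a7 made up 94.9% ± 2.93 of the 3 vesicular genes in NC, 97.9% ± 1.51 in CO and 98.1% ± 1.39 in CLCF1, and the low end of NC, 90.5%, was library 1. Slc1a2 stood to Slc1a3 as 0.510 ± 0.220 in NC, 0.489 ± 0.283 in CO and 0.250 ± 0.0571 in CLCF1, with ranges of 0.283 to 0.856, 0.308 to 1.05 and 0.210 to 0.362. The size of this ratio rests on the uncertain length of Slc1a2. On raw counts it was 0.113 in NC, 0.108 in CO and 0.0554 in CLCF1. The Gria2 share on raw counts was 57.4%, 55.1% and 60.0%. The order of the groups was the same on both scales for these 2 quantities. All 3 groups overlapped in each ratio. For Slc1a2 to Slc1a3, CLCF1 overlapped the other groups only through its library 2, at 0.362, and its other libraries were at 0.210 to 0.257.

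**Figure D4:**
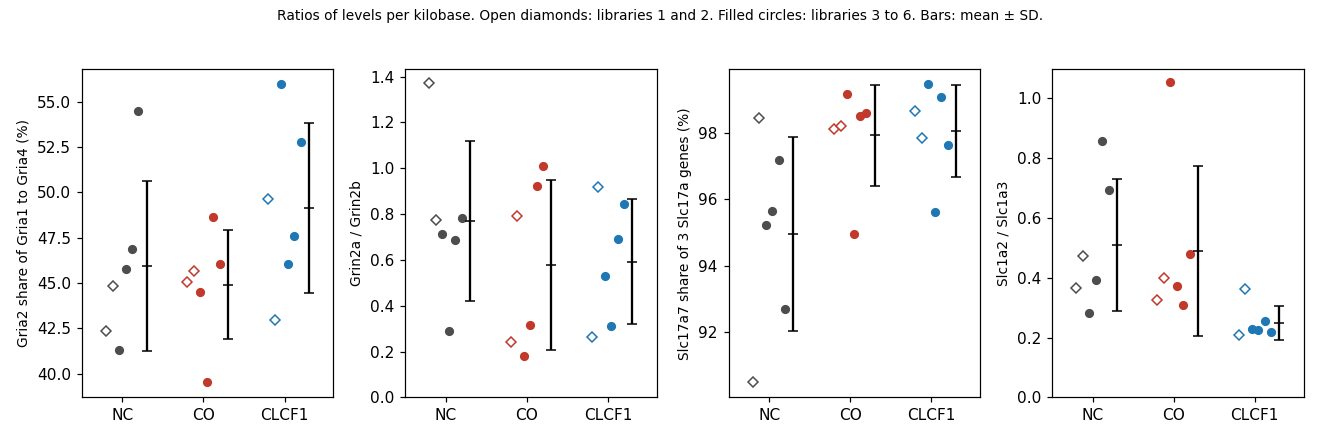
The 4 ratios of levels per kilobase in each library, by group, with the mean ± SD of 6 libraries; the axes of the percentages do not start at 0. Every panel shows overlapping groups, and the Slc1a2 to Slc1a3 ratio is lowest on average in CLCF1.

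Partners of these genes at the glutamate synapse, a list of 68 auxiliary subunits, scaffolds, kinases and enzymes of which 65 were tested, were called in 21.5% of cases in CO against NC, 10.8% in CLCF1 against CO and 3.08% in CLCF1 against NC, beside 12.7%, 17.0% and 9.26% of all genes. In CO against NC, 7 rose, 7 fell and 51 did not pass. The neuronal pentraxins, secreted proteins that gather AMPA receptors, were higher: Nptx1 rose from 196 ± 34.6 to 338 ± 38.4 CPM (0.78 ± 0.13, edgeR adjusted p = 0.0014) and Nptx2 by 0.95 ± 0.22. Pick1, a scaffold that binds GluA2, rose by 0.60 ± 0.14. The glutamine transporter gene Slc38a5 fell by 2.28, from 4.59 ± 1.07 to 0.938 ± 0.800 CPM, and Cbln4, a cerebellin, by 1.04. Dao, which breaks down the NMDA co-agonist D-serine, fell by 4.53 but had only 2.86 ± 2.70 CPM in NC. In libraries 1 and 2 alone the values were 0.68 for Nptx1, 0.91 for Nptx2, 0.49 for Pick1, -1.78 for Slc38a5, -0.95 for Cbln4 and -3.69 for Dao, and for the falls of Slc38a3 and Slc7a11 given below -0.73 and -0.81. Of 10 genes of the glutamine cycle, 4 fell and 0 rose, and of 19 auxiliary subunits and partners 4 rose and 1 fell.

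In CLCF1 against CO, 4 partners were higher, 3 lower and 58 did not pass. Slc38a3, the astrocyte glutamine exporter, was at 53.7 ± 13.0 CPM in CO and 97.4 ± 41.2 in CLCF1 (0.86 ± 0.22, edgeR adjusted p = 0.0116). Slc7a11, which trades cystine for glutamate, was higher by 1.47 ± 0.40, with no overlap of the groups. It had been called lower in CO against NC (-1.34 ± 0.40, edgeR adjusted p = 0.0338), and CLCF1 differed from NC by 0.12 ± 0.39 (edgeR adjusted p = 0.887). Slc38a3 too was called lower in CO against NC (-0.76 ± 0.22, edgeR adjusted p = 0.028). Of 8 fibroblast and meningeal markers, 4 were called lower in CO against NC and 2 higher in CLCF1 against CO. Their sum was 725.2 to 961.3 CPM in NC, 179.9 to 814.3 in CO and 509.7 to 847.4 in CLCF1, and their part in the transporter values was not tested. The AMPA auxiliary subunit gene Cacng5 was higher by 1.48 ± 0.41 and the scaffold gene Grip1 by 0.77 ± 0.24. The scaffold gene Shank3 was lower, at -0.88 ± 0.23, and so was Slc6a9, the glycine transporter GlyT1, at -0.55 ± 0.15. Nptx1, which rose in CO against NC, was lower too (-0.39 ± 0.13, edgeR adjusted p = 0.0486), with -0.44 in libraries 1 and 2 alone. In CLCF1 against NC only Slc6a9 (-0.83 ± 0.15, edgeR adjusted p = 0.00276) and Dao (-4.11 ± 0.94, edgeR adjusted p = 0.0109) passed, both lower, and 63 did not. In libraries 1 and 2 alone, these calls of the named partners kept their sign. For CLCF1 against CO the values there were 0.55 for Slc38a3, 0.97 for Slc7a11, 1.08 for Cacng5, 0.30 for Grip1, -0.39 for Shank3 and -0.54 for Slc6a9, and for CLCF1 against NC -0.64 for Slc6a9 and -3.91 for Dao. Choroid plexus markers stood apart in CLCF1, where 5 of 6 were called higher than in CO and in NC, and their sum was 3.88 to 150.2 CPM in NC, 0.630 to 36.96 in CO and 18.2 to 5986 in CLCF1, with the highest in library 1. Its part in the CLCF1 values above was not tested.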

How the data were processed

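RNA-seq was run on 18 libraries of rat brain, 6 in each of the groups NC, CO and CLCF1, which were taken from the sample titles. Per the labels, a column kit yielded the RNA and 1.3 µg of it entered each library. The authors deposited 1 table of raw counts per gene with symbols, lengths and coordinates. The sources used here do not give the aligner, the counter or the strand setting. The submitters' processing notes name the mouse builds GRCm38 and mm10, although the gene IDs are of rat, so coordinates are printed as the table has them, with no build.

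Tests of counts used edgeR 4.0.16 with R 4.3.3 (TMM scaling, filterByExpr, 1 robust quasi-likelihood fit of all 18 libraries, Benjamini-Hochberg adjustment over 16581 of 34873 genes, threshold 0.05). CPM uses the scaled library sizes, and ± after CPM is an SD over 6 libraries and after a log2 fold change its SE. Depth was 15.1 to 20.3 M counts. No 2 libraries of a group agreed within sampling noise (chi-square per degree of freedom 42.2 to 76.7). The alternatives were a replicate block, DESeq2 size factors, library size alone, no filter, a stricter filter (10 counts in 6 libraries and a mean of 1 CPM), DESeq2 1.42.0, limma-voom with quality weights (limma 3.58.1), a minimum absolute log2 fold change of 1, fits without the group not compared, libraries 1 and 2 or 3 to 6 alone, and leaving out each library. The tests were checked on simulated counts, drawn independently for each library with the spread fitted to these data. That check cannot show whether the real libraries are independent.

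Every member is described by class. Full values are given for each that passed in any comparison and, in a class with none, for the one with the smallest p, and up to 6 partners per comparison are named by smallest p. Grin2c and Slc17a6 are given in full beyond this rule, and Nptx1 in CLCF1 against CO is named beyond it. These choices were made after the values were seen. The members, lists and alternatives were chosen with earlier results of these data known.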

Additional observations from a re-analysis of the deposited data

Results flagged for a closer look

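In 4 of 90 sets of 6 libraries (30 genes in 3 groups), 1 library stood far from the other 5, by a gap to the nearest one above Dixon's critical value for 6 values; chance alone flags about 1 set in 20. Grm5 was at 29.25 CPM in CLCF1 library 2, against 8.559 to 12.05 in the others. Slc1a2 was at 74.26 CPM in the same library, against 34.03 to 42.24. Grin2c was at 41.38 CPM in CLCF1 library 5, against 57.45 to 68.42. Grik1 was at 13.05 CPM in CO library 3, against 9.07 to 10.23. What sets these libraries apart was not tested.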

How the results depend on the processing

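All 14 calls of members kept their sign wherever the gene was tested, and none was reversed; the stricter filter removed Grm6. Calls of Grin1, Grin3b, Grm2, Slc17a7, Grid1, Grm6, Grm7 and Slc17a8 held whichever library was left out, and that of Slc1a2 was lost without any 1 of 9 libraries (edgeR adjusted p 0.00842 to 0.0848). Leaving out 1 library cannot show whether the libraries of a group are independent, as the others of its group stay in the fit. With libraries 1 and 2 alone, 0 of the 14 calls passed. Leaving out 1 library gave 4 to 6 called members in CO against NC, 5 to 6 in CLCF1 against CO and 4 to 8 in CLCF1 against NC, the 8 without CO library 6.

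Values follow in the order CO against NC, then CLCF1 against CO, then CLCF1 against NC. Without a filter, 4291, 5645 and 4292 genes were called in place of 2110, 2814 and 1536. A minimum absolute log2 fold change of 1 left 1088, 1468 and 913 genes, with 1 member in CO against NC and 2 in CLCF1 against CO. Libraries 1 and 2 alone gave 4, 8 and 2 genes and 0, 0 and 0 members, and libraries 3 to 6 alone 918, 1436 and 736 genes, with 2 members in CO against NC and 3 in CLCF1 against CO. These fits hold fewer libraries, and the part of that in the smaller number of calls was not tested. In CLCF1 against NC, DESeq2 called 2334 genes and 9 members, the added ones being Grin2c, Grm5, Grm8 and Slc17a6. Grm7 in CO against NC passed under DESeq2 (adjusted p = 0.0253) and several other settings.

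A fit with the library number as a replicate block called 4, 6 and 7 members and 1944, 2787 and 1477 genes. It kept all 14 calls and added Grm5 in CLCF1 against CO (-0.96, edgeR adjusted p = 0.0486) and Grm5 (-1.12, edgeR adjusted p = 0.0396) and Grm8 (0.88, edgeR adjusted p = 0.0298) in CLCF1 against NC. Deviations of libraries with the same number correlated at -0.03 to 0.15 in 18 pairs, 1 of them above 0.1. In 5 of these pairs the library correlated best with its own number in the other group. They were libraries 1 and 2 for NC with CO (0.0505 and 0.0558) and for CO with CLCF1 (0.0551 and 0.149), and library 3 for NC with CO (0.0228). The correlations were low, so the numbers were not taken to pair the libraries.

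Depth limits the low genes most: Grm6 had 3 to 46 counts and Slc17a8 5 to 85. Switching between scalings moved the median of all genes by 0.0423 at most on the log2 scale.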
